A study of Rattus norvegicus with 16 samples.

Results

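The mRNA levels of 3 genes of the oxidative stress response, Hmox1, Nqo1 and Gpx3, were followed in NG108 cells given mefloquine. NG108 is called a rat neuronal culture in the labels and is known as a hybrid line of mouse neuroblastoma and rat glioma cells. The control was 8 samples exposed to 0.25% dimethyl sulfoxide (DMSO), and the treated group was 8 samples that received mefloquine at 4400 ng/ml, and both exposures lasted 2 hours. Mefloquine is a quinoline antimalarial known for neuropsychiatric side effects. Whether the mefloquine cultures also held DMSO is not stated in the labels. All probe sets whose platform symbol was Hmox1, Nqo1 or Gpx3 were taken, which gave 5 of the 972 gene probe sets on this Affymetrix rat array, for 3 of the 549 genes with a probe set of a single symbol. The genes were picked with their mefloquine and DMSO values already known, so their differences are given as a description, without a p-value.

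These genes belong to the defence against reactive oxygen and electrophiles. The transcription factor NRF2 (Nfe2l2) is held back by KEAP1, is released when KEAP1 is modified by oxidants, and then binds antioxidant response elements near its target genes. Hmox1 encodes heme oxygenase 1, the inducible enzyme that opens the heme ring and releases iron, carbon monoxide and biliverdin, and it is a widely used marker of oxidative and electrophilic stress. Nqo1 encodes a quinone reductase that passes electron pairs to quinones and so avoids reactive semiquinones, while Gpx3 encodes the secreted glutathione peroxidase, a selenoprotein that removes peroxides outside cells.

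Since NRF2 targets are recognised by a short DNA element, the 250 bases before the start of Nqo1 and Gpx3 are shown, with those of Blvra, which encodes biliverdin reductase, the enzyme that acts next after heme oxygenase. Blvra was chosen after its values were seen. No such window was at hand for Hmox1, so Hmox1 is left out of this description. The sequences are from RefSeq for the rat build GRCr8, at chr19:52220268-52220517 on the minus strand for Nqo1, chr10:39529085-39529334 on the plus strand for Gpx3 and chr3:134802660-134802909 on the plus strand for Blvra. Capitals mark a match to the core of the antioxidant response element (TGACNNNGC) or to an AP-1 site (TGANTCA), searched on both strands. The letters of these motifs can overlap.
Nqo1: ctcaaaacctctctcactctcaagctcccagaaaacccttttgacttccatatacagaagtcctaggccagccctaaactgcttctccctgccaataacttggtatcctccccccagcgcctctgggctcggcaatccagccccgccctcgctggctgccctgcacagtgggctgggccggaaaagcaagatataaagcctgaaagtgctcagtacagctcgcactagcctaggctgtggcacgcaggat
Gpx3: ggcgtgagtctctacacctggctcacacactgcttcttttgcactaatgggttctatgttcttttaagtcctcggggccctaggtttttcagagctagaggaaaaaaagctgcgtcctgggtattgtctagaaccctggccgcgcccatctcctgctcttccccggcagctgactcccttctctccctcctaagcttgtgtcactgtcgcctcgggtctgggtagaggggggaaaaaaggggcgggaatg
Blvra: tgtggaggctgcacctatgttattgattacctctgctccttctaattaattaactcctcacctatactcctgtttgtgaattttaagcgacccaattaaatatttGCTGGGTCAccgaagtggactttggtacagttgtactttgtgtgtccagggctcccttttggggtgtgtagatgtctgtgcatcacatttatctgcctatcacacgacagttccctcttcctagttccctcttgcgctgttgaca
The window of Blvra held 1 match to the antioxidant response element core and no AP-1 match, and the windows of Nqo1 and Gpx3 held neither motif. Over the windows of 27457 rat genes, 10.2% held the core and 6.36% an AP-1 match. Of 64 genes from the oxidative stress lists described below with such a window, 13 held the core and 7 an AP-1 match. A match, or the lack of one, describes letters in this window only. Bases further upstream were not searched, so the lack of a match does not mean that a gene has no such element.

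The values were linear intensities that the authors had scaled by chip. Values under a floor of 426.5, the 25th percentile of all positive values, were treated as unordered. The floor is that percentile and not a measured noise limit. Log2 differences were taken after raising such values to the floor, and a difference between dim values is then understated. Intensities, their means and the overlaps are given without the floor. Of the 5 probe sets, 3 (1 for each gene) exceeded the floor on 8 or more arrays, which was the condition for entering the model fitted to 545 probe sets. The other 2 were dim in both groups.

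Hmox1 read higher on average with mefloquine. Its probe set, J02722cds_at, read 8.8 on the lowest DMSO array, with a median of 836 and a highest value of 1055. With mefloquine the lowest, median and highest intensities were 967, 1123 and 1380. The lowest value was DMSO control 3, the single array on which Hmox1 fell below the floor, and all 8 mefloquine arrays lay above the DMSO mean. The groups overlapped all the same: 5 mefloquine arrays exceeded the highest DMSO array and 7 DMSO arrays lay below the lowest mefloquine array. No overlap at all was seen for 0.55% of the 545 tested probe sets, and for 0.917% without DMSO control 3. Of the tested probe sets 2.57% had all 8 mefloquine arrays above the DMSO mean.

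The mean Hmox1 intensity was 773 ± 324 in DMSO cells and 1148 ± 155 in mefloquine cells (SD, n = 8 each). The difference was 0.51 ± 0.16 on the log2 scale (SE), or 1.42-fold. Without DMSO control 3 the DMSO mean was 882 ± 106 (SD, n = 7) and the difference 0.38 ± 0.10, or 1.30-fold. Both the difference and its error were thus smaller without that array, and all 8 mefloquine arrays still lay above the DMSO mean, as for 1.47% of tested probe sets.

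Nqo1 read lower on average with mefloquine. Its brighter probe set, J02679_s_at, had a lowest, median and highest intensity of 327, 736 and 914 in DMSO cells and of 255, 437.5 and 806 in mefloquine cells. It was above the floor on 6 DMSO arrays and on 4 mefloquine arrays, so a part of each group was raised to the floor for the log2 difference. The groups overlapped, with 3 DMSO arrays above the highest mefloquine array. DMSO controls 3 and 5, at 327 and 367, were the DMSO arrays under the floor.

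The mean Nqo1 intensity was 673 ± 216 in DMSO cells and 481 ± 208 in mefloquine cells (SD, n = 8 each). The log2 difference was -0.34 ± 0.19 (SE), and -0.43 ± 0.18 without DMSO control 3, with DMSO then at 722 ± 178 (SD, n = 7). Thus Nqo1, unlike Hmox1, was further from 0 when that array was left out. The differences of all tested probe sets also moved down: their 5th percentile went from -0.34 to -0.43, and the share below 0 from 53.6% to 62.2%. The move of Nqo1 is therefore not read as particular to it.

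The other Nqo1 probe set, M58495mRNA_at, was below 0 on every array, as occurs when mismatch probes are brighter than matched ones, and gives no level of the transcript. Its intensities ran from -1625 to -483 in DMSO cells and from -1651 to -458.5 in mefloquine cells. They were split by replicate number and not by treatment: the 6 arrays numbered 6 to 8 lay between -805 and -458.5, and the 10 arrays numbered 1 to 5 between -1651 and -866. The labels give no meaning to these numbers beyond the replicate.

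Gpx3 was well above the floor on all 16 arrays by its brighter probe set, rc_AI172411_at. The lowest, median and highest intensities were 2659, 3498 and 4440 in DMSO cells and 2914, 3406 and 3716 in mefloquine cells. The mefloquine range lay inside the DMSO range, with 3 DMSO arrays above it and 1 below it. The means were 3678 ± 630 and 3385 ± 303 (SD, n = 8 each). On the log2 scale mefloquine minus DMSO was -0.11 ± 0.12 (SE), and -0.12 ± 0.11 without DMSO control 3. The other Gpx3 probe set, D00680_at, stayed under the floor on all 16 arrays, between -151 and 357 with DMSO and between -101 and 376 with mefloquine, and gives no difference.

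**Figure D1:**
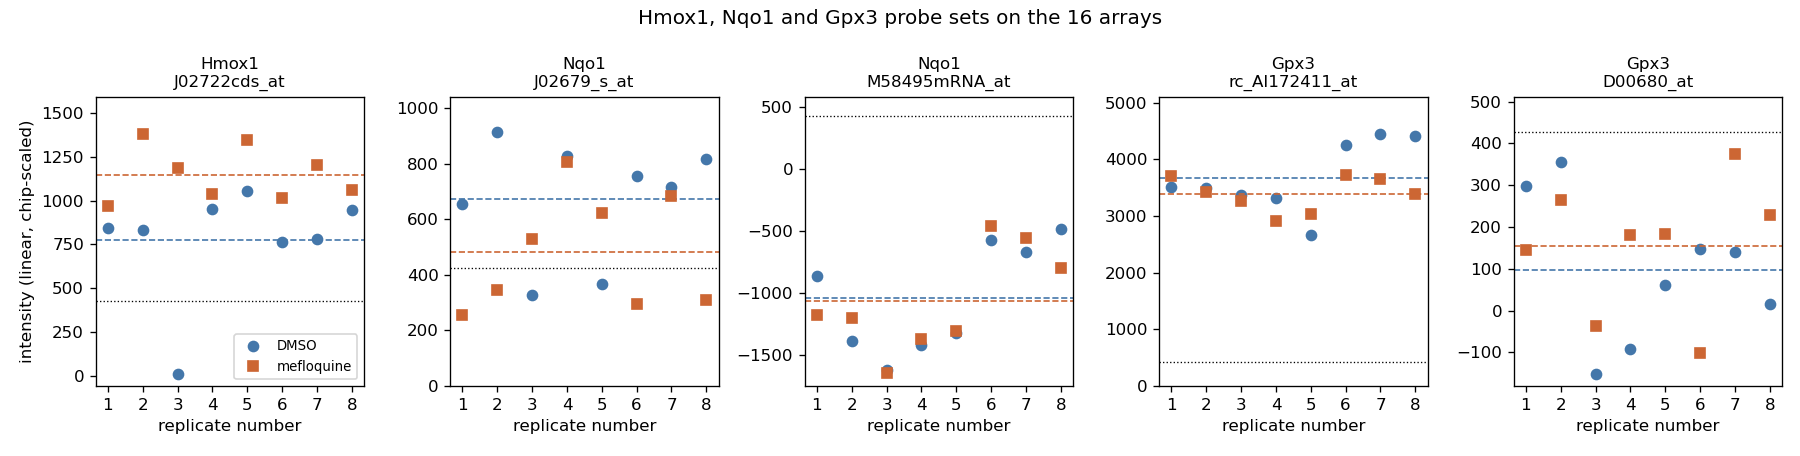
Intensity (linear, chip-scaled) of the 5 probe sets of Hmox1, Nqo1 and Gpx3 against replicate number, with circles for DMSO, squares for mefloquine, dashed lines for group means and a dotted line for the floor of 426.5. Hmox1 on DMSO control 3 lies at 8.8, and the 3 highest Gpx3 values by rc_AI172411_at are DMSO controls 6 to 8.

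The 3 highest Gpx3 arrays were DMSO controls 6, 7 and 8, at 4250, 4440 and 4408. The mefloquine arrays of those numbers read 3716, 3647 and 3390. Within replicates 1 to 5 the means were 3266 ± 349 with DMSO and 3266 ± 314 with mefloquine (SD, n = 5 each), and mefloquine minus DMSO was 0.00 ± 0.15 (log2, SE). Within replicates 6 to 8 they were 4366 ± 102 and 3584 ± 172 (SD, n = 3 each), a difference of -0.29 ± 0.07. The Gpx3 means thus coincided in replicates 1 to 5 and lay apart in replicates 6 to 8. The contrast between the ranges was not tested, since they were noticed in these data.

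Hmox1 was at 0.58 ± 0.24 (log2, SE) in replicates 1 to 5, which hold DMSO control 3. In replicates 6 to 8 it was at 0.39 ± 0.12. DMSO control 3 was raised to the floor for Hmox1, at 8.74 (log2). DMSO controls 1, 2, 4 and 5 were at 9.72, 9.70, 9.90 and 10.04. Without DMSO control 3 Hmox1 was at 0.38 over both ranges, and replicates 1 to 5 were not fitted without it. The higher Hmox1 value in replicates 1 to 5 is therefore not read as a difference between the ranges. Nqo1 was at -0.18 ± 0.27 in replicates 1 to 5 and at -0.61 ± 0.21 in replicates 6 to 8. In replicates 6 to 8 the groups did not overlap for any of the 3 genes: DMSO arrays spanned 765 to 949 for Hmox1, 715 to 818 for Nqo1 and 4250 to 4440 for Gpx3, and mefloquine arrays 1013 to 1201, 297 to 685 and 3390 to 3716. Of all tested probe sets 11.9% were without overlap in these 6 arrays, and 1.83% in replicates 1 to 5, where none of the 3 genes was.

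**Figure D2:**
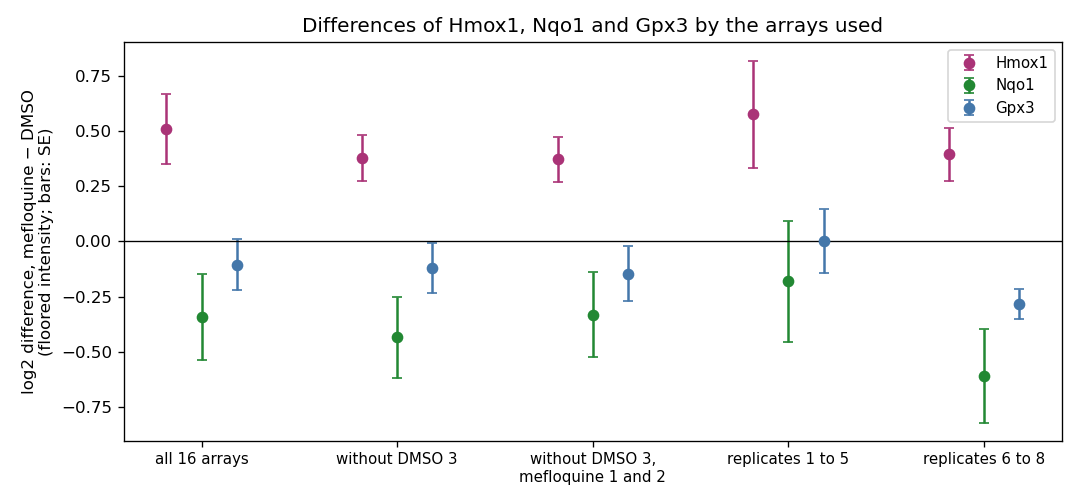
Log2 difference in floored intensity, mefloquine minus DMSO, of Hmox1, Nqo1 and Gpx3 over 5 choices of arrays, with bars for the SE of the limma fit. Hmox1 is above 0 and Nqo1 below 0 in each choice, while Gpx3 lies between -0.29 in replicates 6 to 8 and 0.00 in replicates 1 to 5.

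By limma with Benjamini-Hochberg adjustment, 7 of the 545 tested probe sets (1.28%) passed at 0.05, and 0 of the 3 probe sets of Hmox1, Nqo1 and Gpx3 were among them. Without DMSO control 3 the count was 6 (1.1%), again with 0 of the 3. Because the genes were chosen from this contrast, nothing is read from these counts. From the 5th to the 95th percentile, all tested differences ran from -0.34 to 0.40 (log2), with a median of -0.01. Without DMSO control 3 they ran from -0.43 to 0.38, with a median of -0.05, and Hmox1, at 0.38, lay within that span.

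DMSO control 3 stood apart in RNA quality as well. Its ratios of 3' over 5' signal were 21.3 for beta-actin and 4.62 for GAPDH, against 1.31 to 2.67 and 1.02 to 1.48 on the other 15 arrays. The log2 ratios did not pass a test between the groups (two-sided exact permutation test, p = 0.672 for beta-actin and 0.494 for GAPDH, n = 8 each; 0.652 and 0.994 without that array). With the log2 GAPDH ratio as a covariate the differences were 0.38 ± 0.10 for Hmox1, -0.43 ± 0.18 for Nqo1 and -0.11 ± 0.11 for Gpx3 (log2, SE). DMSO control 3 has by far the highest ratio, so this fit cannot tell its RNA quality from anything else about that array. The part of RNA quality in its Hmox1 value was not tested. Each array had between 495 and 552 gene probe sets above the floor. Nothing in the labels says that the samples were separate cultures: the spread behind these errors and p-values may then be technical. Of 19 neuronal markers 0 had a probe set of their own here, and of 11 glial markers 2 had one, Vim and Clu. Both were above the floor on all 16 arrays. The hepatocyte marker Tat was above it on 12 arrays and the endothelial marker Kdr on 0. No cell type is read from these few markers. How well mouse transcripts are read by the rat probes was not tested.

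The rest of the pathway was taken from 6 lists by role, with 70 genes beside the 3. Of these, 24 had a probe set with a single symbol and 20 were tested, each by its brightest tested probe set. In limma 0 of the 20 rose and 0 fell (lowest adjusted p = 0.982), and 0 had an unadjusted p under 0.05. The shares over all 545 were 1.28% and, without adjustment, 4.22%, at which under 1 of 20 genes would be counted, so these counts of 0 are near the background. On all arrays the differences of 15 were below 0 and those of 5 above 0, with a median of -0.06, where 53.6% of all 545 probe sets were below 0 with a median of -0.01. Without DMSO control 3 the median was -0.10 for the 20 and -0.05 for all 545, of which 62.2% were below 0. For 17 of the 20 the 95% interval excluded a 2-fold change in floored intensity either way, as for 87.7% of all tested probe sets. Among these 17, Hmox2, Gclc and Txnrd2 were above the floor on 11 arrays each, and Sod2 on 13. Their remaining values were raised to the floor, which understates differences, so their intervals do not bound the change in transcript. None of the 8 NRF2 pathway regulators, among them Nfe2l2 and Keap1, had a probe set of its own here.

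In heme and iron handling, 3 genes beside Hmox1 were tested, and on all arrays their differences were below 0. Hmox2, the constitutive heme oxygenase, differed by -0.12 ± 0.24 (log2, SE), with 660 ± 216 in DMSO and 519 ± 392 in mefloquine cells (SD, n = 8 each). Blvra, described above, differed by -0.33 ± 0.33, from 1377 ± 413 to 1134 ± 518. Tfrc, the transferrin receptor through which cells take up iron, differed by -0.32 ± 0.39, from 1834 ± 966 to 1488 ± 701. The size of the last 2 varied with the arrays used. DMSO control 3 read 447 for Blvra and below 0 for Tfrc, and without it the differences were -0.55 and -0.60. Without mefloquine 1 and 2 as well, Hmox2 was at 0.06, Blvra at -0.15 and Tfrc at -0.26, so only Hmox2 changed sign. None of the 3 passed limma's test on all arrays (adjusted p = 0.982 for each). Without DMSO control 3 limma's adjusted p was 0.930 for Hmox2 and 0.618 for both Blvra and Tfrc.

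Of the enzymes near Nqo1 in role, 5 were tested and 4 were below 0. The malic enzyme gene Me1, a source of NADPH, differed by 0.31 ± 0.20 (log2, SE), from 2231 ± 624 to 2633 ± 214 (SD, n = 8 each). It was lowest on DMSO control 3, at 861, and without that array its difference was 0.12. The mitochondrial thioredoxin reductase Txnrd2 differed by -0.23 ± 0.18, and by -0.10 without DMSO control 3. Cbr1, a carbonyl reductase, was at -0.07 ± 0.15 (-0.15 without DMSO control 3) and Por, the reductase that serves cytochrome P450 enzymes, at -0.09 ± 0.11. In limma each had an adjusted p of 0.982. The other tested probe sets were at -0.17 for Cbr1 and 0.03 for Por, and at -0.30 and -0.14 without DMSO control 3.

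Of the peroxidases and superoxide dismutases 6 were tested, 4 of them with differences below 0. Gpx1 and Gpx4, the cytosolic and the phospholipid glutathione peroxidase, differed by -0.08 ± 0.12 and 0.06 ± 0.10 (log2, SE). Their 95% intervals in limma ran from -0.34 to 0.18 and from -0.15 to 0.27, and without DMSO control 3 the differences were -0.16 and 0.07. The other tested Gpx1 probe set was at -0.17, and at -0.09 without DMSO control 3. The superoxide dismutases Sod1 and Sod2, of the cytosol and of mitochondria, differed by -0.07 ± 0.10 and -0.20 ± 0.23, and Sod2 was at -0.34 without DMSO control 3 and at -0.09 without mefloquine 1 and 2 as well. The other tested Sod1 probe set was at -0.22, and at 0.00 without DMSO control 3. The catalase gene Cat was not tested, with its brightest probe set above the floor on 2 arrays. In the glutathione list 1 gene was tested, Gclc, the catalytic subunit of the rate-limiting step of glutathione synthesis, at -0.05 ± 0.23, and at -0.13 without DMSO control 3.

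Of the 5 conjugation enzymes, the epoxide hydrolase Ephx1 differed by -0.14 ± 0.13 (log2, SE), and the glutathione transferases Gstm1, Gstm2 and Mgst1 by 0.31 ± 0.47, -0.03 ± 0.15 and 0.04 ± 0.19. Without DMSO control 3 these 4 were at -0.22, 0.44, -0.10 and 0.12. Gstm1 had the widest interval of the 20. Its mean intensity went from 3239 ± 1677 to 4395 ± 3063 (SD, n = 8 each). Without DMSO control 3 and mefloquine 1 and 2 its difference was 0.06. On all arrays the other tested probe sets were at 0.10 and -0.00 for Gstm1 and at -0.18 for Gstm2. Probe sets of Gstm genes can read related family members.

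**Figure D3:**
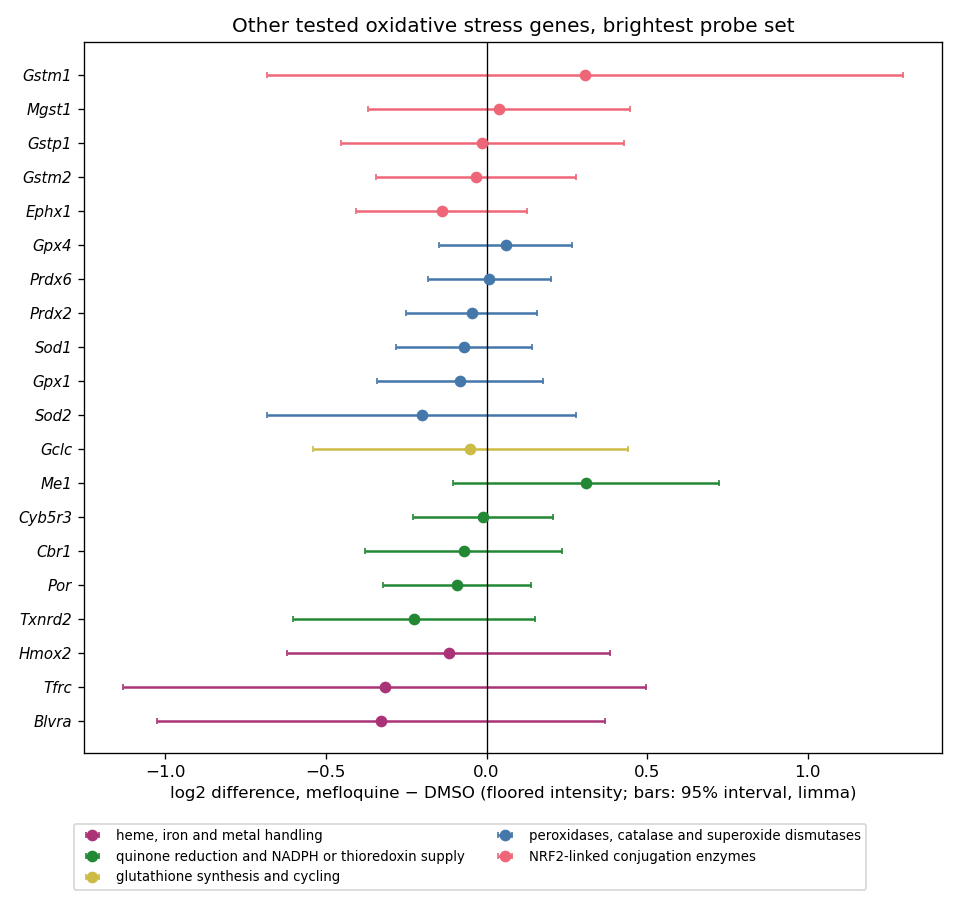
Log2 difference in floored intensity, mefloquine minus DMSO, of the 20 other tested oxidative stress genes by role, with bars for the 95% interval in limma. Each interval includes 0, and those of Blvra, Tfrc and Gstm1 reach past a 2-fold change, which is 1 on this axis.

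The genes whose levels ran most like those of the 3 were sought among 339 other singly named genes over the 15 arrays without DMSO control 3. These correlations are descriptions, since the arrays share treatment, replicate number and chip scaling. Closest to Hmox1 were Ddit3 (r = 0.70), which encodes the stress factor CHOP, Nfkbia (r = 0.64), the inhibitor of NF-kappa-B, and Fkbp4 (r = 0.62), a co-chaperone of HSP90. After each group's mean was removed, r was -0.03 for Ddit3, -0.00 for Nfkbia and 0.39 for Fkbp4, so the likeness to the first 2 lay between the group means. Hmox1 was picked with its group means known, and a shared response was not tested. With DMSO control 3 included, r was 0.40 for Ddit3, 0.57 for Nfkbia and 0.82 for Fkbp4.

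Closest to Nqo1 were Sod2 (r = 0.68), Tgfbr3 (r = 0.67), a co-receptor for TGF-beta, and Hspb1 (r = 0.65), a small heat shock protein. Within groups these were 0.60, 0.54 and 0.54. Closest to Gpx3 were Odc1 (r = 0.78), the first enzyme of polyamine synthesis, Cryaa (r = 0.74), a lens crystallin, and Mgat3 (r = 0.65), an N-glycan branching enzyme, with 0.80, 0.75 and 0.63 within groups. Among the 3 genes themselves, over the same 15 arrays, r was -0.47 between Hmox1 and Nqo1, -0.54 between Hmox1 and Gpx3, and 0.28 between Nqo1 and Gpx3. Over all 16 arrays, with DMSO control 3, these were -0.05, -0.28 and 0.29, and within groups over the 15 arrays -0.13, -0.49 and 0.15.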

How the data were processed

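NG108 samples were measured on 16 Affymetrix arrays, 8 per group, with 10 µg of total RNA each. The authors deposited linear intensities, scaled with standard chip factors and otherwise untransformed, per the labels. The scanner software is not given in the sources used here. Of 1031 probe sets 59 were controls, and 26.9% of values were at or below 0. The 5 probe sets were found by platform symbol and matched RefSeq by Entrez identifier. Values were raised to the floor and log2 was taken. Probe sets above it on at least 8 arrays were fitted with limma 3.58.1 in R 4.3.3, with treatment as the only term, and the script was tested on simulated data. Quality ratios were compared over all 12870 divisions of the arrays. Alternatives covered scaling, floor, filter, variance model, array weights, blocks, a GAPDH ratio covariate and arrays left out. By rule, all probe sets of the 3 genes, up to 4 tested genes of each list with the smallest p and the 3 genes most like each member are named. The members, lists and alternatives were chosen with earlier results of these data known.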

Additional observations from a re-analysis of the deposited data

Results flagged for a closer look

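Each tested gene named by the stated rule, by its brightest probe set, and each quality ratio was examined, within each group of 8 arrays, for a highest or lowest array far from its nearest neighbour (Dixon's test at the 95% level). Of 58 such examinations 9 stood out (15.5%), and all 9 were DMSO control 3. The examinations reuse the same 16 arrays, and this array was already known to stand apart. The count is therefore not set against a chance rate. On the log2 scale after the floor, this array was low for Hmox1 at 8.736 (other DMSO arrays 9.58 to 10.04), Blvra at 8.80 (10.33 to 10.79), Tfrc at 8.736 (10.33 to 11.39), Me1 at 9.75 (10.89 to 11.43), Ephx1 at 9.83 (10.32 to 10.69) and Hspb1 at 11.49 (12.21 to 12.62). Hmox1 and Tfrc were at the floor there, so their distance is a lower bound. It was high for Ddit3 at 10.72 (8.74 to 9.57) and for the log2 ratio of 3' over 5' signal, at 4.42 for beta-actin (0.39 to 1.42) and 2.21 for GAPDH (0.18 to 0.56). Nqo1 and Gpx3 had no array that stood out in either group. For Nqo1, DMSO controls 3 and 5 shared the floor value, as did mefloquine 1, 2, 6 and 8. A low array of Nqo1 therefore could not stand out.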

How the results depend on the processing

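The log2 difference of Hmox1 stayed above 0 in all 30 alternatives in which it was tested (0.36 to 0.69) and that of Nqo1 below 0 in all 29 (-0.61 to -0.18). Gpx3 ranged from -0.29 to 0.00 over 31 alternatives, with 0.00 in replicates 1 to 5 alone. With 1 array left out at a time the ranges were 0.38 to 0.56 for Hmox1, -0.43 to -0.28 for Nqo1 and -0.17 to -0.06 for Gpx3. The count of list genes that passed was 0 in all 31. The count of all probe sets that passed, 7, was 4 with quantile normalization, with a floor at the 10th or 40th percentile or with an offset, 3 with all 16 arrays above the floor, 1 in replicates 6 to 8 alone, and 4 to 8 with 1 array left out. The beta-actin difference in log2 ratio was 0.0797 without DMSO control 3 instead of -0.40. With the replicate number as a block the differences were 0.51, -0.34 and -0.11 and 8 probe sets passed. Same-numbered arrays deviated together at r over 0.1 in 7 of 8 pairs, with 1 pair at 0.0569, and 4 of 16 arrays correlated best with their own number. The numbers were not taken as pairs, since the labels do not pair them and not every pair passed 0.1. The other Nqo1 and Gpx3 probe sets were at the floor throughout and gave no value. Nqo1 was above the floor on 10 of 16 arrays, which limits its value.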
